A study of Mus musculus with 12 samples.

Results

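The proteasome subunit genes are those whose gene name is Psm followed by a, b, c, d or e and a number. They were read in the livers of 12 male C57BL/6J mice, aged 21 weeks. The table held 43 such names. Of these, 42 reached a mean of 0.5 FPKM over the 12 livers and stood among the 11566 gene names tested. Values of all transcripts with the same gene name were summed. FPKM is the number of fragments assigned to a transcript, scaled to its length and to the library. The name left out was Psmb11, the subunit of the thymus form, with a mean of 0.00175 FPKM. All mice had been housed one per cage and fed for 16 weeks, with 3 livers sequenced per group. The ND mice ate a normal diet and the HFD mice a high-fat diet. The CLE mice ate the high-fat diet with 1.5% (w/w) ethanol extract of Chrysanthemum morifolium leaves. The LU mice ate it with 0.003% (w/w) luteolin, a plant flavonoid. The authors picked the 3 livers of each group as representative ones, and how they did so is not stated in their methods. The livers were bulk tissue, in which fewer cells of a type and less RNA per cell cannot be told apart.

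The proteasome is the protease that breaks down proteins tagged with ubiquitin. Its core is a barrel of alpha and beta subunits, named Psma and Psmb, and the active sites lie on the beta subunits Psmb5 (chymotrypsin-like), Psmb6 (caspase-like) and Psmb7 (trypsin-like). A regulatory cap of ATPases (Psmc) and non-ATPase subunits (Psmd) binds, unfolds and threads the substrates into the barrel. Interferon induces Psmb8, Psmb9 and Psmb10, which take the places of Psmb5, Psmb6 and Psmb7 in the immunoproteasome and favour peptides that fit MHC class I. It also induces the activator subunits Psme1 and Psme2. When proteasome activity falls, the transcription factor NRF1, the product of Nfe2l1, raises most subunit genes together. Loss of NRF1 from hepatocytes leads to fatty liver in mice.

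Some facts of the whole set of livers touch every value below. The depth of the libraries is unknown, since FPKM values hold no read numbers. CLE 4, named by its mouse number, stood apart in its total: its FPKM values summed to 5574800 over the tested genes, against 1698300 to 3633200 in the other 11 livers. Its median-of-ratios factor, which follows the typical gene rather than the sum, was 1.05, within the 0.894 to 1.06 of the other livers. Across genes, the deviation of a library from the 12-liver mean ran against the GC content of the transcripts in all 6 ND and HFD livers (Spearman's rho -0.37 to -0.14) and with it in all 6 CLE and LU livers (0.16 to 0.48, highest in CLE 4). This split and the treatment cannot be told apart. Of 8 hepatocyte markers all were in the table, with sums of 33604 to 38530 FPKM in ND, 39899 to 52789 in HFD, 36691 to 54264 in CLE and 40734 to 63651 in LU. Albumin was listed at 0 in 11 of the 12 livers, a value that can be a failed estimate, and its value in LU 3 set the top of the LU range. Without albumin the LU sums were 40734 to 45970 FPKM.

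Upstream sequences of 4 members are shown as examples of genes that passed the test in a comparison below: the active-site subunits Psmb5 and Psmb6, the ubiquitin receptor Psmd4 and the assembly chaperone Psmd9. Each is the 250 bases before the RefSeq gene start, 5′ to 3′ on the gene's strand, in GRCm38.p6. The windows lie at chr14:54617996-54618245 (-) for Psmb5, chr11:70525107-70525356 (+) for Psmb6, chr3:95042615-95042864 (-) for Psmd4 and chr5:123227940-123228189 (+) for Psmd9. Capitals mark matches on either strand to TGACNNNGC (the core of the antioxidant response element, which NRF1 and NRF2 bind), GAAA followed by NN and GAAA (from the interferon-stimulated element) or CCAAT (the CCAAT box). None of the marked matches overlaps another. Each of these 4 windows holds a match to the first or second of these letters. The windows of other genes that passed, such as Psmb4, Psma4 and Psme2, held none of the 3.
Psmb5: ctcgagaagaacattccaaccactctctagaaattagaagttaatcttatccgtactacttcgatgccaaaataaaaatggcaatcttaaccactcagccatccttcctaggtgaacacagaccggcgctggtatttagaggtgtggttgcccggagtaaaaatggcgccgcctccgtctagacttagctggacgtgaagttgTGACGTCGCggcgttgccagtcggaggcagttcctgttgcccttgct
Psmb6: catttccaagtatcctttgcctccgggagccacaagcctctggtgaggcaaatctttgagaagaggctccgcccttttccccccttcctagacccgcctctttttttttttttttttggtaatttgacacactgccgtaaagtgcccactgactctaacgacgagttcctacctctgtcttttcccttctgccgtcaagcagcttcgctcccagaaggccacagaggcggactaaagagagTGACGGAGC
Psmd4: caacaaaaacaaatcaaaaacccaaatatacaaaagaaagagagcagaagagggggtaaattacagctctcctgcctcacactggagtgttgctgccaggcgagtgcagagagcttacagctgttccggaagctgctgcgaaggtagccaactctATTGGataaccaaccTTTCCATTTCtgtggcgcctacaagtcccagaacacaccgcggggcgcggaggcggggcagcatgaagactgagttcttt
Psmd9: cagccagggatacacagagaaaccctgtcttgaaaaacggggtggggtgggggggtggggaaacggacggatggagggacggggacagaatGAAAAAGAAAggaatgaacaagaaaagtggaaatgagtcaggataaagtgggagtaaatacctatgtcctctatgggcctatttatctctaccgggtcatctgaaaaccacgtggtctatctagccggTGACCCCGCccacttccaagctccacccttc

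TGACNNNGC stood once in the Psmb5, Psmb6 and Psmd9 windows, and also in those of Psmc6 and Psmd12. That made 5 of the 35 members with a RefSeq window (14.3%), against 10.2% of 32851 windows over all genes. The interferon-stimulated letters stood in the windows of Psmd4, Psmd9 and Psmb3, or 8.57% of members against 2.98% of all windows. CCAAT stood in 13 members, Psmd4 among them, or 37.1% against 33.9%. The Psmb8 and Psmb10 windows held none of these letters within the 250 bases, and the Psmb9 window held CCAAT. Members were counted by gene, with a match in any window of the gene, while the shares over all genes are by window. A gene with several windows, such as Psma6 or Psmc2, has more places for a match. These shares describe letters, not bound sites.

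The core and cap subunits other than Psma8 lay between 39.9 and 157 FPKM, a level per transcript length. The 7 constitutive beta subunits ran from 69.2 FPKM (Psmb2) to 157 FPKM (Psmb4), as means over the 12 livers. Among the 8 alpha genes, 7 lay between 64.2 (Psma5) and 144 FPKM (Psma6), and the testis variant Psma8 stood at 0.608 FPKM. The 6 ATPases ranged from 55.1 (Psmc2) to 90.7 FPKM (Psmc3). The 11 non-ATPase cap subunits ranged from 39.9 FPKM (Psmd14, the deubiquitinase of the cap) to 114 FPKM (Psmd4). Lower levels were found for the 3 assembly chaperones, Psmd10 (8.59 FPKM), Psmd5 (16.9) and Psmd9 (33.3), and for the 3 immunoproteasome subunits, Psmb10 (16.4), Psmb9 (18.2) and Psmb8 (27.4). The 4 activator genes spanned 21.5 (Psme3) to 83.5 FPKM (Psme2).

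Spread between mice differed by group, with a median coefficient of variation over the 42 genes of 9.18% in ND, 7.64% in HFD, 13.2% in CLE and 4.19% in LU. The same liver was often the highest or lowest of its group. ND 2 was the highest ND liver for 34 of the 42 genes, HFD 12 the highest HFD liver for 29, and CLE 2 the lowest CLE liver for 26. Some values can hold reads of other genes. Of the Psmd11 sum, 25.1% came from transcripts that GENCODE M21 places in 4930402H24Rik and A730017L22Rik. Reads were not stated to be counted by strand, and 12 members share exon bases with another gene, among them Psmb9 with Tap1 (18.6 FPKM), Psmd13 with Sirt3 (83.5), Psme1 with Emc9 (25.6), Psmb7 with Nek6 (20.2) and Psmc3 with Slc39a13 (9.40), all on the opposite strand.

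**Figure D1:**
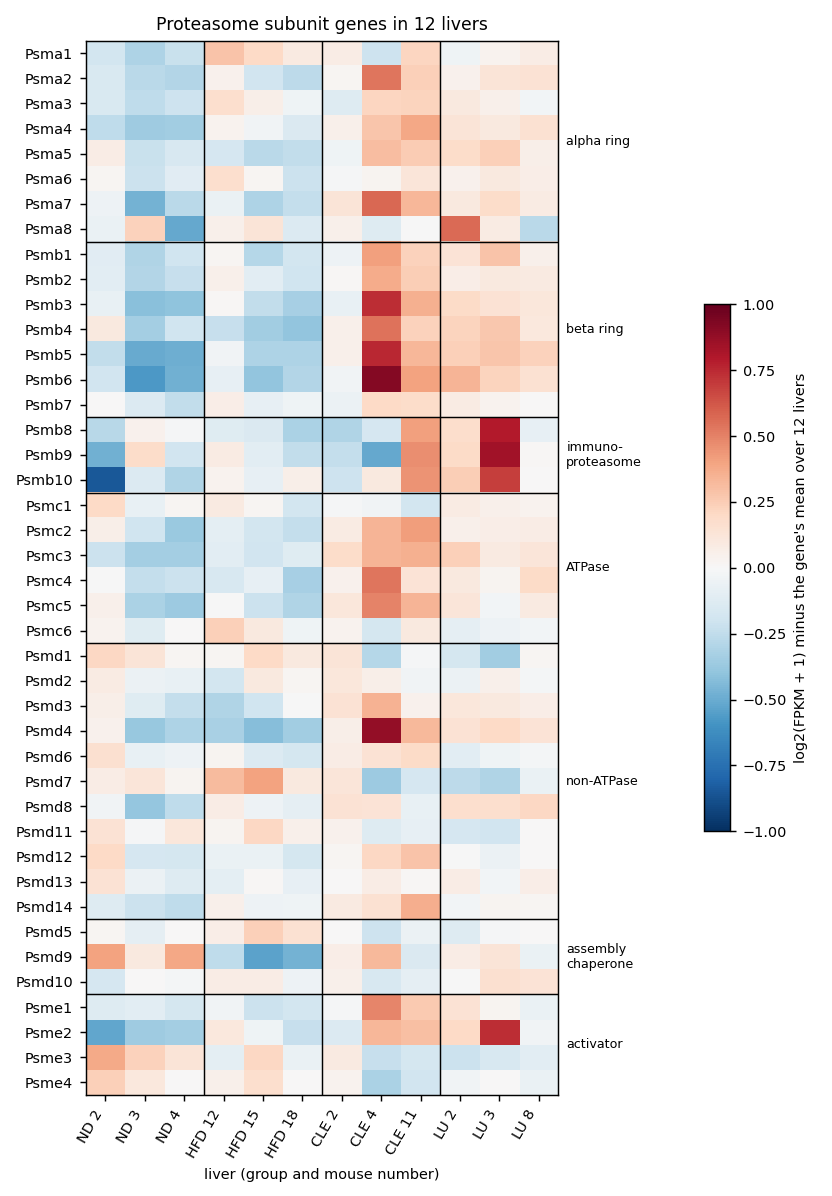
Each row is a proteasome subunit gene, grouped by class, and each column a liver; colour gives log2(FPKM + 1) minus the gene's mean over the 12 livers, from blue (lower) to red (higher). Deviations run from -0.85 (Psmb10 in ND 2) to 0.92 (Psmb6 in CLE 4), and for Psmb5 and Psmb6 all CLE and LU cells are above all ND and HFD cells.

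Differences between groups are given on the log2(FPKM + 1) scale ± SE from limma, with 3 mice per group and Benjamini-Hochberg adjustment over all 11566 gene names. A gene is said to have risen or fallen where the adjusted p was below 0.05. The p-values rest on the spread between single mice.

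The comparison of HFD with ND asks what the high-fat diet did. Of the 42 genes, 1 rose and 1 fell, against 9.99% and 2.11% of all genes tested (12.1% in both directions). The gene that fell was Psmd9, a chaperone that helps build the ATPase ring. It was at 43.4, 34.8 and 42.8 FPKM in ND, 27.1, 22.1 and 23.2 in HFD, 34.2, 41.1 and 29.3 in CLE and 34.3, 35.8 and 31.2 in LU, with mice in rising order of their numbers (ND 2, 3 and 4, HFD 12, 15 and 18, CLE 2, 4 and 11, LU 2, 3 and 8), an order kept below. Every HFD liver lay below every other liver. The HFD minus ND difference was -0.72 ± 0.14 (limma adjusted p = 0.0056). The call was lost, of the alternatives tried, when only reference transcripts were summed (-0.55, limma adjusted p = 0.089). Most of the Psmd9 sum came from 1 assembled transcript on the plus strand at chr5:123228190-123253725, whose mean was 29.3 ± 2.37 FPKM (SD, n = 3) in ND, 15.5 ± 3.19 in HFD, 24.2 ± 4.92 in CLE and 20.4 ± 3.96 in LU. Its 3′ part overlaps Wdr66 on the same strand, a gene listed at 0.142 FPKM. In GENCODE M21, Psmd9 also shares 1849 exon bases with Gm26745 on the opposite strand, a name for which no level was listed.

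Psma1, an alpha ring subunit, rose with HFD. It stood at 106, 96.7 and 103 FPKM in ND, 147, 138 and 128 in HFD, 127, 104 and 140.1 in CLE and 117, 123 and 127 in LU. All HFD livers lay above all ND livers, and the CLE and LU livers spread between and around them. The HFD minus ND difference was 0.43 ± 0.12 (limma adjusted p = 0.029). It rests on every mouse of both groups: without any 1 of ND 2, 3 and 4 or HFD 12, 15 and 18 the limma adjusted p was 0.052 to 0.10. Median-of-ratios scaling, which moved the median of all genes for this comparison from 0.11 to -0.026, gave 0.26 (limma adjusted p = 0.24). Psma1 lay above this median under both scalings.

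The rest of the complex did not pass the test between HFD and ND. The median difference of the 42 genes was 0.065, below the 0.11 of all genes tested, and 15 of the 42 lay above that all-gene median. Groups did not overlap for 8 genes that were higher in HFD and 1 that was lower, against 29.1% and 7.44% of all genes (36.5% in both directions). The beta ring sum was 711, 581 and 601 FPKM in ND and 725, 623 and 625 in HFD, with overlapping ranges. The direction of 14 members, Psmb6, Psmb7 and Psmb9 among them, turned under median-of-ratios scaling.

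CLE was compared with HFD to read the effect of the leaf extract on the high-fat diet. Of the 42 genes, 7 rose and 0 fell, against 2.74% and 3.29% of all genes tested (6.03% in both directions). The 7 were the beta subunits Psmb4 and Psmb5, the alpha subunit Psma7, the ATPases Psmc2 and Psmc3, the ubiquitin receptor Psmd4 and the chaperone Psmd9. The median difference of the 42 genes was 0.22, and that of all genes was 0.016. At an unadjusted p below 0.05 there were 23 genes (54.8%), 21 of them higher in CLE, against 29.5% of all genes.

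Psmd4, a cap subunit that binds ubiquitin chains, had the largest difference. It was at 114, 84.5 and 88.7 FPKM in ND, 88.2, 81.98 and 86.6 in HFD, 115, 204 and 139 in CLE and 122, 127 and 121 in LU. CLE 4 was far above all other livers, and CLE 2 and CLE 11 also lay above the 3 HFD livers. The CLE minus HFD difference was 0.79 ± 0.17 (limma adjusted p = 0.033). Psmb4, a structural subunit of the beta ring, was at 164, 122 and 134 FPKM in ND, 131, 120.4 and 117 in HFD, 159.5, 224 and 181 in CLE and 179, 185 and 165 in LU. The CLE livers again lay above the HFD livers, while ND 2 lay above CLE 2. The difference was 0.60 ± 0.14 (limma adjusted p = 0.035), and 0.33 (limma adjusted p = 0.11) with the transcript of the highest mean alone.

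Psmb5, which carries the chymotrypsin-like site, stood at 89.7, 74.7 and 75.6 FPKM in ND, 104, 85.6 and 85.6 in HFD, 110.2, 179.9 and 134 in CLE and 126, 129 and 125 in LU. All CLE and LU livers were above all ND and HFD livers. The CLE minus HFD difference was 0.60 ± 0.16 (limma adjusted p = 0.045). Psmb6, which carries the caspase-like site, showed the same order, with 95.9, 73.2 and 78.1 FPKM in ND, 103, 83.2 and 89.4 in HFD, 107, 208 and 145 in CLE and 139, 128 and 122 in LU. CLE 4 was the highest liver, and the difference of 0.69 ± 0.19 (limma adjusted p = 0.053) missed the threshold. Psmb7, which carries the trypsin-like site, was at 118, 107 and 98.6 FPKM in ND, 122, 110.4 and 114 in HFD, 113, 135 and 133 in CLE and 124, 120.2 and 117 in LU. Its CLE and HFD livers overlapped, and the difference was 0.13 ± 0.11 (limma adjusted p = 0.42).

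Psma7, an alpha ring subunit, was at 113, 83.8 and 96.6 FPKM in ND, 111, 93.8 and 98.8 in HFD, 128, 173 and 147 in CLE and 124, 132 and 123 in LU, with the CLE livers above the HFD livers and a difference of 0.55 ± 0.13 (limma adjusted p = 0.038). Psmc3, an ATPase of the cap, was at 76.8, 70.5 and 70.4 FPKM in ND, 83.1, 78.01 and 82.01 in HFD, 102, 113 and 115 in CLE and 106, 95.1 and 97.1 in LU. Its CLE and LU livers lay above all ND and HFD livers, and CLE differed from HFD by 0.43 ± 0.093 (limma adjusted p = 0.032). Psmc2, another ATPase, differed by 0.45 ± 0.12 (limma adjusted p = 0.048), and with reference transcripts alone by -0.57. Psmd9 rose by 0.51 ± 0.14 (limma adjusted p = 0.048), from the low HFD values given above, with no overlap.

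By class, all 7 beta ring genes were higher in CLE, with a median of 0.53, and the summed beta ring was 742, 1126 and 912 FPKM in CLE against 725, 623 and 625 in HFD. The CLE livers lay above all HFD livers, and CLE 4 was the highest. The ATPase median was 0.43 (4 of 6 higher), the alpha ring median 0.17 (6 of 8), and the non-ATPase median 0.093 (8 of 11). At the lower end was Psmd7, a lid subunit that pairs with the deubiquitinase Psmd14. It was at 70.7, 73.2 and 68.6 FPKM in ND, 84.03, 88.9 and 72.1 in HFD, 73.01, 52.01 and 59.6 in CLE and 55.8, 54.4 and 64.2 in LU. CLE and HFD overlapped, with a difference of -0.41 ± 0.13 (limma adjusted p = 0.067), which was 0.15 with reference transcripts alone. Groups did not overlap for 17 genes that were higher in CLE and 1 that was lower, against 16.3% and 15% of all genes (31.3% in both directions).

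The count of 7 rested on single libraries. It was 0 without CLE 4, and also without HFD 12, HFD 15 or HFD 18. It was 2 without CLE 11 and 19 without CLE 2 (17 higher, 2 lower). Leaving out a mouse of another group, which enters the shared spread, gave 4 (ND 3), 3 (ND 4), 3 (LU 2), 4 (LU 3) or 4 (LU 8). A fit limited to CLE and HFD mice called 0 genes, and so did a correction for GC content. Directions of the 42 genes were the same under median-of-ratios scaling, with 3 calls left, and 1 turned under quantile normalization. Over 25 alternatives, Psmd4 lost its call in 7 and Psmd9 in 19, the least and the most often of the 7 genes.

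**Figure D2:**
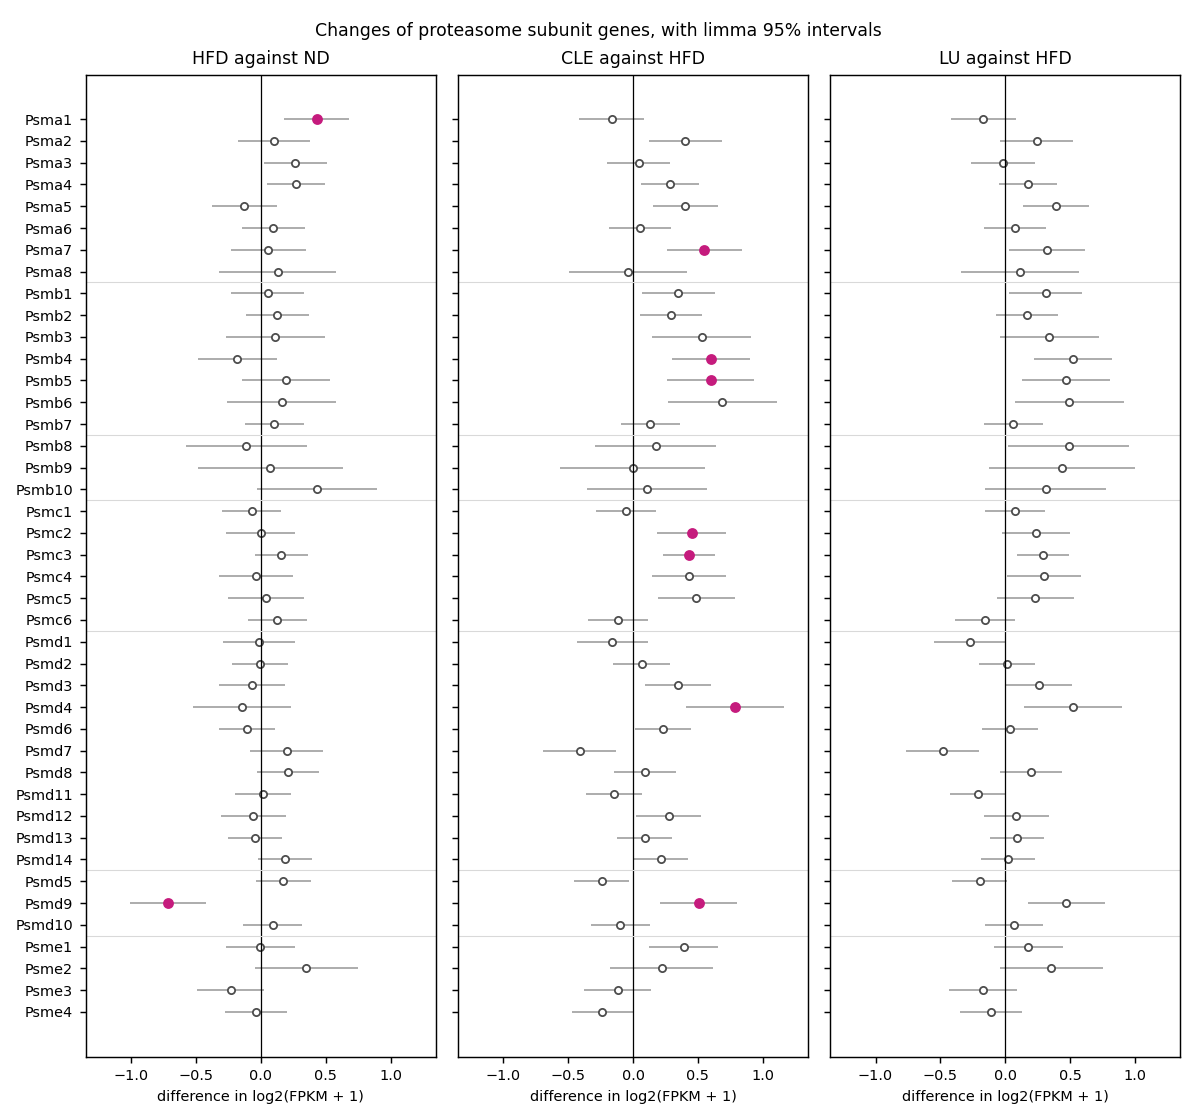
Points give the CLE minus HFD and LU minus HFD difference of each proteasome subunit gene on the log2(FPKM + 1) scale, with bars for the 95% confidence interval and genes grouped by class. The 7 beta ring genes lie to the right of 0 in both comparisons, and Psmd7 lies to the left in both.

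LU was compared with HFD to read the effect of luteolin. None of the 42 genes passed limma's adjusted p of 0.05, where 1.03% of all genes tested did. At an unadjusted p below 0.05 there were 13 (30.95%), 12 of them higher in LU, against 20.3% of all genes, and a fit limited to LU and HFD mice called 2, Psmb4 and Psmd4. The count was 5 without CLE 4, with Psmb4, Psmb5, Psmd4 and Psmd9 higher and Psmd7 lower, and 1 (lower) without CLE 2. The median difference of the 42 genes was 0.18, against -0.017 for all genes. The CLE and LU comparisons share the 3 HFD livers.

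Levels of the constitutive beta ring genes lay close together in the LU livers. The immunoproteasome subunits spread more in LU, with a coefficient of variation of 33.6% for Psmb8, 33.1% for Psmb9 and 26.1% for Psmb10. The beta ring sum was 856, 859 and 806 FPKM in LU, above all 3 HFD livers. All 7 beta ring genes had a positive difference, with a median of 0.34. Psmb4 differed by 0.52 ± 0.14 (limma adjusted p = 0.087), Psmb5 by 0.47 ± 0.16 (limma adjusted p = 0.14), and Psmb6 by 0.49 ± 0.19 (limma adjusted p = 0.19). For Psmb5 and Psmb6 the LU livers did not overlap the HFD livers. The LU minus HFD difference of Psmd7 was -0.48 ± 0.13 (limma adjusted p = 0.087), with no overlap, and 0.090 with reference transcripts alone. Psmd9 differed by 0.47 ± 0.14 (limma adjusted p = 0.11). In all, groups did not overlap for 19 genes higher in LU and 7 lower, against 13.1% and 16.9% of all genes (30% in both directions).

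The immunoproteasome subunits were highest in the same 2 livers, LU 3 and CLE 11. Psmb8, which replaces Psmb5, was at 21.9, 27.5 and 26.4 FPKM in ND, 24.4, 24.1 and 21.2 in HFD, 21.5, 23.6 and 35.7 in CLE and 30.3, 47.04 and 25.1 in LU. The lowest LU liver (25.1) lay just above the highest HFD liver (24.4), and all other pairs of groups overlapped. Psmb9, which replaces Psmb6, was at 12.3, 20.1 and 15.2 FPKM in ND, 18.6, 16.2 and 14.6 in HFD, 14.8, 12.01 and 24.6 in CLE and 20.1, 32.2 and 17.7 in LU, and all groups overlapped. Psmb10, which replaces Psmb7, was at 8.34, 14.3 and 12.7 FPKM in ND, 16.3, 14.9 and 16.6 in HFD, 13.6, 16.98 and 21.998 in CLE and 18.9, 26.2 and 15.9 in LU. ND 2 was the lowest, and every LU and HFD liver lay above every ND liver.

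In the tests, none of these 3 genes changed with HFD against ND, CLE against HFD or LU against HFD. The HFD minus ND differences were -0.11 for Psmb8, 0.072 for Psmb9 and 0.43 for Psmb10, with limma adjusted p from 0.21 to 0.90. The CLE minus HFD differences were 0.18 for Psmb8, -0.0035 for Psmb9 and 0.11 for Psmb10, all with 95% intervals across 0. The LU minus HFD differences were 0.49 for Psmb8, 0.44 for Psmb9 and 0.31 for Psmb10, with limma adjusted p from 0.23 to 0.42 and an interval of 0.023 to 0.96 for Psmb8. Between LU and ND, Psmb10 rose by 0.74 ± 0.21 (limma adjusted p = 0.037). That call was lost without ND 2, ND 4, LU 2 or LU 3 (limma adjusted p 0.070 to 0.13).

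Of the markers of other cells, the MHC class II markers H2-Aa, H2-Ab1, H2-Eb1 and Cd74 were also highest in LU 3 and CLE 11. Itgax, the dendritic cell marker read with them, was highest in CLE 2 (2.22 FPKM). Its value in CLE 11 (0.767 FPKM) lay below those in HFD 12 (0.799) and HFD 18 (1.07), while LU 3 lay below CLE 2 only. The 5 markers of dendritic cells and MHC class II summed to 423 FPKM in LU 3 and 359 in CLE 11, and to 111 to 248 in the other 10 livers. By group the sums were 111 to 156 FPKM in ND, 179 to 237 in HFD, 164 to 359 in CLE and 171 to 423 in LU, and none of the 5 was at 0 in all livers. Of 8 macrophage and Kupffer cell markers, 7 were tested and 4 rose with HFD against ND (Cd68, Csf1r, Vsig4 and Cd5l), against 9.99% of all genes. The sums of all 7 tested macrophage and Kupffer cell markers were 103 to 114 FPKM in ND, 150.4 to 225 in HFD, 151 to 193 in CLE and 114 to 194 in LU, with the highest value in HFD 18. The part of these cells in the immunoproteasome values was not tested. Relative to the subunit it replaces, Psmb8 was at 32.03 ± 6.67% of Psmb5 (SD, n = 3) in ND, 25.5 ± 2.35% in HFD, 19.8 ± 6.74% in CLE and 26.9 ± 8.56% in LU. Psmb9 was at 19.9 ± 7.35% of Psmb6 in ND, 17.97 ± 1.58% in HFD, 12.2 ± 5.74% in CLE and 18.04 ± 6.11% in LU. Psmb10 was at 11.1 ± 3.499% of Psmb7 in ND, 13.8 ± 0.702% in HFD, 13.7 ± 2.42% in CLE and 16.9 ± 4.38% in LU. All these ranges overlapped between CLE and HFD and between LU and HFD.

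**Figure D3:**
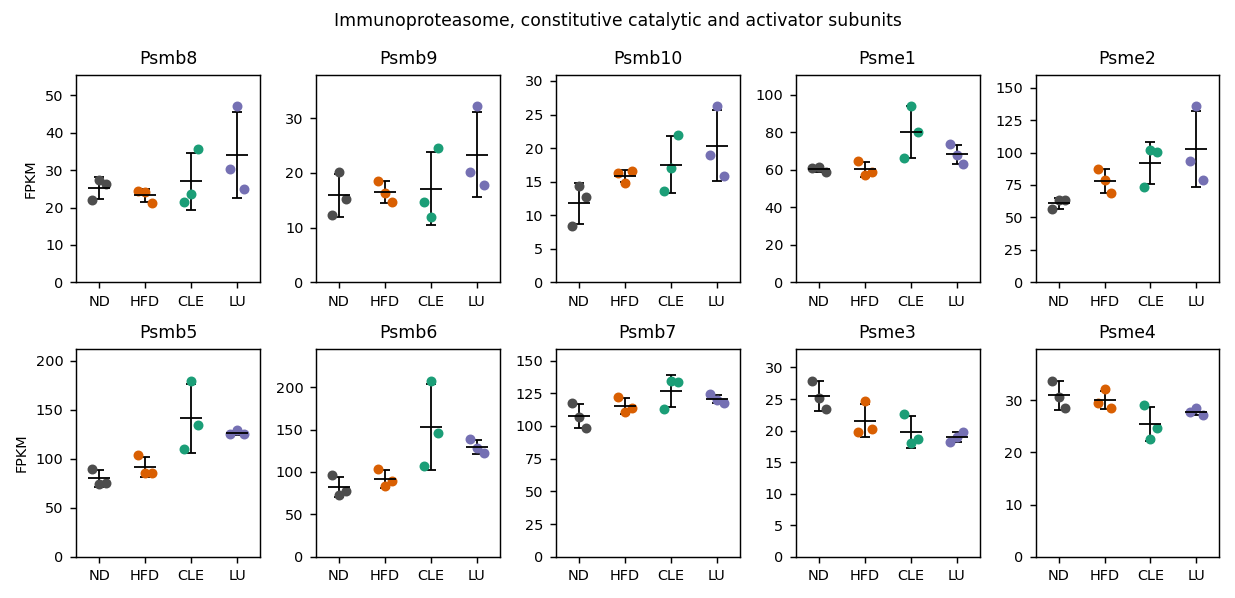
Points are single livers and bars the group mean ± SD (n = 3) in FPKM of the immunoproteasome subunits Psmb8, Psmb9 and Psmb10 beside the subunits they replace, Psmb5, Psmb6 and Psmb7. LU 3 and CLE 11 are the 2 highest livers for each immunoproteasome subunit, while CLE 4 is the highest for Psmb5 and Psmb6.

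Among the activators, Psme1 and Psme2 form the interferon-induced ring that opens the barrel. Psme2 was at 56.2, 63.1 and 63.8 FPKM in ND, 87.2, 78.6 and 69.02 in HFD, 73.7, 102 and 100.02 in CLE and 93.4, 136 and 78.9 in LU. Every HFD, CLE and LU liver lay above every ND liver, and LU 3 was the highest. It rose in CLE against ND by 0.57 ± 0.18 (limma adjusted p = 0.037) and in LU against ND by 0.71 ± 0.18 (limma adjusted p = 0.026), while HFD minus ND was 0.35 ± 0.18 (limma adjusted p = 0.24). Psme1 was at 60.8, 61.6 and 58.7 FPKM in ND, 64.9, 57.3 and 58.6 in HFD, 66.1, 93.9 and 80.1 in CLE and 73.5, 67.9 and 63.4 in LU, with CLE 4 highest, and rose in CLE against ND by 0.39 ± 0.12 (limma adjusted p = 0.035). Both CLE calls were lost without CLE 4, CLE 11 or any 1 of the 3 ND mice (limma adjusted p 0.067 to 0.12 for Psme2), and the Psme2 call in LU without LU 3 or any 1 of the ND mice (limma adjusted p 0.052 to 0.083).

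Psme3, the nuclear activator, went the other way. It was at 27.9, 25.2 and 23.3 FPKM in ND, 19.8, 24.7 and 20.2 in HFD, 22.7, 17.995 and 18.7 in CLE and 18.2, 18.9 and 19.7 in LU. All LU livers were below all other livers except CLE 4 and CLE 11, and CLE lay below ND in every mouse. It fell by 0.35 ± 0.12 in CLE against ND (limma adjusted p = 0.046) and by 0.40 ± 0.12 in LU against ND (limma adjusted p = 0.041). Each of these calls was lost without any 1 of the 3 ND mice, among others (limma adjusted p 0.052 to 0.14 and limma adjusted p 0.052 to 0.12). Psme4, an activator that caps the barrel without ATP, was at 33.8, 30.6 and 28.4 FPKM in ND, 29.5, 32.1 and 28.6 in HFD, 29.05, 22.6 and 24.7 in CLE and 27.7, 28.4 and 27.1 in LU, and CLE minus ND was -0.27 ± 0.11 (limma adjusted p = 0.076). With the transcript of the highest mean alone, this difference was 0.86, and with reference transcripts alone -1.42 (limma adjusted p = 0.0050).

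Against ND the CLE and LU groups carry both the high-fat diet and the supplement. With CLE, 17 of the 42 genes rose and 1 fell, against 20.9% and 6.08% of all genes tested (27% in all). Of the 7 beta ring genes 6 rose, of the 6 ATPases 4, of the 8 alpha genes 3, of the 11 non-ATPases 2 and of the 4 activators 2. The largest rises were in Psmb6, by 0.85 ± 0.19 (limma adjusted p = 0.010), and Psmb5, by 0.79 ± 0.16 (limma adjusted p = 0.0058). Psmd4 followed with 0.64 ± 0.17 (limma adjusted p = 0.020), and Psma7 with 0.61 ± 0.13 (limma adjusted p = 0.0092). Psmb3, a structural beta subunit, was at 95.1, 74.7 and 75.7 FPKM in ND, 101, 84.2 and 79.6 in HFD, 95.05, 167 and 129 in CLE and 115, 111 and 108 in LU. Its CLE and ND livers overlapped at CLE 2 and ND 2, and it rose by 0.64 ± 0.18 (limma adjusted p = 0.021). Psmc3 rose by 0.59 ± 0.093 (limma adjusted p = 0.0022).

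With LU against ND, 7 of the 42 genes rose and 1 fell, against 11.2% and 3.78% of all genes (14.9% in all). Psmb10 and Psme2 are given above. The others were the active-site subunits Psmb5, by 0.66 ± 0.16 (limma adjusted p = 0.018), and Psmb6, by 0.65 ± 0.19 (limma adjusted p = 0.041). Psmc3 rose by 0.45 ± 0.093 (limma adjusted p = 0.012), the alpha subunit Psma4 by 0.45 ± 0.10 (limma adjusted p = 0.018), and the lid subunit Psmd8 by 0.41 ± 0.11 (limma adjusted p = 0.029). With reference transcripts alone the Psmd8 difference was 0.063 (limma adjusted p = 0.83), and it was as small with the transcript of the highest mean. Groups did not overlap for 21 genes higher in LU and 3 lower, against 29.4% and 11.5% of all genes (40.9% in both directions). For CLE against ND these were 16 and 1 genes, against 32.2% and 10.1% (42.4% in both directions). The member medians of 0.28 for CLE and 0.24 for LU stood above the 0.16 and 0.12 of all genes.

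Both counts depended on scaling and on single mice. Median-of-ratios scaling, which brings the all-gene median near 0, left 4 rises with CLE against ND (Psma4, Psmb5, Psmb6 and Psmc3) and 4 falls (Psmd7, Psmd11, Psme3 and Psme4). With LU against ND it left 0 rises and 4 falls (Psmd1, Psmd7, Psmd11 and Psme3). The CLE against ND count of 18 was 7 without ND 3, 6 without ND 4 and 7 without CLE 4. The LU against ND count of 8 was 4 without ND 2, 3 without ND 3, 1 without ND 4, 4 without LU 2, 2 without LU 3, 5 without LU 8 and 13 without CLE 4. With any 1 mouse left out, Psma4, Psma7, Psmb5, Psmb6, Psmc3 and Psmd14 passed each time in CLE against ND, and Psmc3 in LU against ND.

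CLE and LU were compared directly as an extract and a pure flavonoid. Luteolin is also a flavonoid of the leaves. None of the 42 genes passed limma's adjusted p of 0.05 or an unadjusted p of 0.05. Of all genes tested, 0.00865% passed the first and 4.39% the second. The differences ran from -0.44 (Psmb9) to 0.26 (Psmd4), with a median of 0.067 against 0.034 for all genes. For Psmb5 the interval of the difference was -0.21 to 0.47 and for Psmd4 -0.11 to 0.64. Without CLE 4 the Psmb5 difference was -0.057. Groups did not overlap for 4 genes higher in CLE and 2 lower, against 4.66% and 2.42% of all genes (7.08% in both directions).

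Transcript composition ran with the differences. Across the 42 members, the CLE minus HFD difference had a Spearman correlation of 0.49 with GC content and -0.45 with length, where all 11413 genes with both values had 0.47 and -0.21. For LU minus HFD the member values were 0.65 and -0.42, and those of all genes 0.44 and -0.25. These correlations are across genes of the same 12 libraries, which are not independent replicates, and are given as a description. The part of GC content in the CLE and LU differences was not tested apart from the treatment, since the libraries split by GC content as the supplements do.

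**Figure D4:**
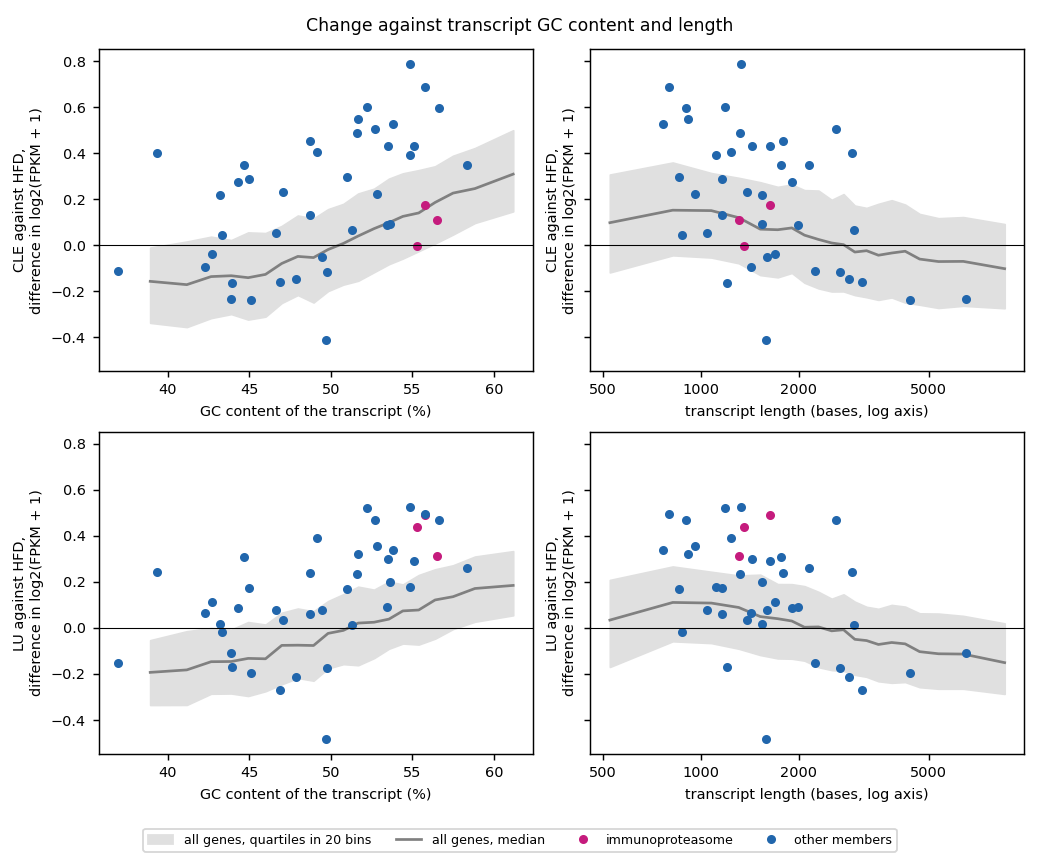
Each point is a proteasome subunit gene, coloured by class, with its CLE minus HFD or LU minus HFD difference in log2(FPKM + 1). The horizontal axis is GC content (percent) or length (bases, log axis), from the reference sequence for the gene's transcript with the highest mean. Differences rise with GC content (Spearman's rho 0.49 and 0.65) and fall with length (-0.45 and -0.42).

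Other genes of the pathway were read from 4 lists. Of 18 assembly and accessory proteins, 12 were tested, and between CLE and HFD 1 rose and 0 fell. It was Adrm1, a ubiquitin receptor of the cap, at 51.1, 43.01 and 40.1 FPKM in ND, 45.4, 43.7 and 46.05 in HFD, 57.3, 85.2 and 69.2 in CLE and 59.9, 59.7 and 58.01 in LU. The CLE livers lay above the HFD livers, with a difference of 0.62 ± 0.13 (limma adjusted p = 0.032). The call was lost without HFD 12, HFD 15, HFD 18, CLE 4 or CLE 11 (limma adjusted p 0.051 to 0.14). None of the 12 genes passed limma's threshold in HFD against ND or LU against HFD, where 2 and 1 had an unadjusted p below 0.05. Of all genes tested, 27.2% and 20.3% had one.

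Of 6 genes that control proteasome transcription, 4 were tested. Nfe2l1, which encodes NRF1, was at 89.9, 101 and 109 FPKM in ND, 93.3, 119.98 and 93.3 in HFD, 65.4, 51.2 and 54.6 in CLE and 62.5, 62.6 and 68.9 in LU. The 6 CLE and LU livers lay below all 6 ND and HFD livers. It fell in CLE against HFD, with -0.83 ± 0.13 (limma adjusted p = 0.011), and in LU against HFD, with -0.64 ± 0.13 (limma adjusted p = 0.040). The first call was lost without HFD 15 (limma adjusted p = 0.060). The second was lost without ND 3, ND 4, HFD 12, HFD 15, HFD 18, CLE 11, LU 2 or LU 3 (limma adjusted p 0.054 to 0.20). Nfe2l2, which encodes NRF2, was at 35.3, 31.8 and 33.1 FPKM in ND, 53.8, 48.5 and 47.1 in HFD, 43.996, 38.8 and 42.3 in CLE and 39.7, 36.8 and 47.5 in LU. It rose in HFD against ND, by 0.56 ± 0.11 (limma adjusted p = 0.0067), and every HFD liver was above every ND liver.

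Of 12 ubiquitin and substrate delivery genes, 11 were tested and 0 passed limma's threshold in HFD against ND, CLE against HFD or LU against HFD, where 1 gene each had an unadjusted p below 0.05. In CLE against ND 1 rose and in LU against ND 2 rose, against 20.9% and 11.2% of all genes. Of 10 MHC class I and interferon genes, 9 were tested. Between CLE and HFD, Irf1, an interferon-induced transcription factor, rose by 0.53 ± 0.14 (limma adjusted p = 0.045) and Erap1, the peptidase that trims MHC class I peptides, fell, with -0.85 ± 0.18 (limma adjusted p = 0.029). The Erap1 call was lost without CLE 4 or any 1 of the 3 HFD mice, and the Irf1 call without those or without CLE 11, ND 4, LU 2 or LU 8. None of the 9 passed limma's threshold in HFD against ND or LU against HFD, where 2 and 3 had an unadjusted p below 0.05. These lists stand beside 2.74% of genes higher and 3.29% lower for CLE against HFD, and 0.303% and 0.726% for LU against HFD. For HFD against ND the shares were 9.99% and 2.11%. An unadjusted p below 0.05 was found for 27.2% of all genes in HFD against ND. The share was 29.5% in CLE against HFD and 20.3% in LU against HFD.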

How the data were processed

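Livers of 12 mice were sequenced, 3 in each of 4 groups, and the sample labels gave the groups. RNA libraries were made with a TruSeq RNA kit. The authors processed reads with CASAVA 1.8.2, Bowtie2 2.2.3, TopHat2 2.0.12 and Cufflinks 2.2.1, as named in the submitters' processing notes, and deposited FPKM values for 152210 transcripts, which were assembled as well as known ones. Cufflinks shares fragments among overlapping transcripts, so no read counts, depths or counting errors can be had. The methods name normalization factors, and whether the FPKM values hold them is not stated. The genome build is not given in the sources used here. GENCODE M21 on GRCm38 was used for annotation, since 87.6% of 76916 known transcripts begin and end where it places them.

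FPKM values were summed per gene name, which left out 6316 transcripts with no name, and the 11566 names with a mean of at least 0.5 were compared with limma 3.58.1 (R 4.3.3) as log2(FPKM + 1). One fit held all 12 mice, with a variance trend and one coefficient per group, and the tests were two-sided with Benjamini-Hochberg adjustment at 0.05. A difference on this scale understates the change of low genes. The fit was tested on simulated data. The rule takes gene names in mixed case, and the upper-case name PSMA2 (chromosome 14) was left out.

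The members and lists were chosen with earlier results of these data known. Values per mouse are given for Psmb5 to Psmb10, Psme1 to Psme4, and the 5 genes with the largest change among those that passed in HFD against ND, CLE against HFD, CLE against ND and LU against ND. Psmd7 was given per mouse after its values were seen. Genes of the lists are named where they passed in HFD against ND, CLE against HFD or LU against HFD. The lists covered assembly, transcription control, ubiquitin delivery and MHC class I genes, and markers of hepatocytes, macrophages, T and NK, B, dendritic, neutrophil, leukocyte, adipocyte and erythroid cells. Alternatives were a pseudocount of 0.1, no filter, a minimum mean of 5 FPKM, median-of-ratios and quantile scaling, no variance trend, the compared groups alone, the transcript with the highest mean, reference transcripts only, corrections for GC content and length, sums by M21 gene, a replicate block and each mouse left out. Upstream sequences are those of RefSeq on GRCm38.p6, matched by symbol for 35 of 42 genes.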

Additional observations from a re-analysis of the deposited data

How the results depend on the processing

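The number of proteasome genes that passed depended on the processing in each comparison but CLE against LU. For HFD against ND, with 2 genes passing, the number was 1 with median-of-ratios scaling, 1 with quantile normalization, 1 with the transcript of the highest mean alone, 0 with reference transcripts only, 1 with a GC correction, 1 with a length correction, and 1 to 2 with 1 mouse left out. For CLE against HFD, with 7, it was 1 without the filter on low values, 3 with median-of-ratios scaling, 12 with quantile normalization, 2 with the highest transcript, 2 with a correction for GC content and length, 0 with GC content alone, 0 with those groups fitted alone, and 0 to 19 with 1 mouse left out. For LU against HFD, with 0, it was 1 with reference transcripts only, 2 with those groups fitted alone, and 0 to 5 with 1 mouse left out. For CLE against ND, with 18, it was 8 with median-of-ratios scaling, 7 with GC content and length, 6 with GC content, 7 with length, 6 with those groups fitted alone, and 6 to 24 with 1 mouse left out. For LU against ND, with 8, it was 4 without the filter, 4 with median-of-ratios scaling, 5 with quantile normalization, 2 with GC content and length, 2 with GC content, 3 with length, and 1 to 13 with 1 mouse left out. For CLE against LU it was 0 to 0 with 1 mouse left out. The cause of these changes was not tested, and some of the fits also held fewer mice or genes.

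These differences changed direction, in log2 units. In HFD against ND, median-of-ratios scaling gave -0.092 for Psmb9, -0.013 for Psmb6 and -0.070 for Psmb7, and quantile normalization -0.057 for Psmb9. The GC and length correction gave -0.091, -0.034 and -0.071 for the same genes. GC content alone gave -0.070 for Psmb9 and -0.021 for Psmb7, and length alone -0.080, -0.012 and -0.054. The highest transcript gave 0.023 for Psme1 and 0.32 for Psme4. In CLE against HFD, quantile normalization gave 0.010 for Psmb9, the highest transcript 0.55 for Psme4 and 0.15 for Psmd7, and reference transcripts -0.57 for Psmc2 and 0.15 for Psmd7. GC content and length gave -0.00031 for Psmb8 and -0.10 for Psmb10, and GC content -0.074 for Psmb10. In LU against HFD, Psme4 was 0.71 with the highest transcript, 0.086 with GC content and length, 0.036 with GC content and 0.0096 with length. Psmd7 was 0.090 with the highest transcript and 0.090 with reference transcripts, and Psmb7 was -0.017 with length. Against ND, the highest transcript gave -0.13 for Psmb1 and 0.86 for Psme4 in CLE and 1.03 for Psme4 in LU. Psme4 was -1.42 in CLE and -1.46 in LU with reference transcripts, and both passed. Reference transcripts gave -0.23 for Psmc2 in CLE. With 1 mouse left out, ranges crossed 0 in HFD against ND for Psmb9 (-0.087 to 0.25), Psme1 (-0.058 to 0.030) and Psme4 (-0.095 to 0.025), in CLE against HFD for Psmb8 (-0.039 to 0.31), Psmb9 (-0.28 to 0.21) and Psmb10 (-0.060 to 0.27), and in CLE against LU for Psmb5 (-0.057 to 0.29).

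The values of single genes kept direction and side of the threshold in 288 of 325 cases for HFD against ND, 376 of 525 for CLE against HFD, 326 of 350 for LU against HFD, 341 of 513 for CLE against ND, 154 of 243 for LU against ND and 49 of 50 for CLE against LU. These cases pool members and list genes that passed with named members that did not. A gene that failed the threshold both times could count as kept, so these shares do not measure how stable the calls were. Of the members that passed in HFD against ND, Psma1 lost its call in 13 of 25 alternatives and Psmd9 in 1. Mouse numbers recur in the ND, CLE and LU groups. Deviations from group means of same-numbered mice correlated at -0.26 to 0.18, so the numbers were not taken as pairs. With the replicate number as a block, 0 genes passed in CLE against ND and 0 in LU against ND, against 12 and 4 without the block in the same mice. No paired analysis was possible for the comparisons with HFD because no HFD mouse has a number of another group. The corrections for GC content or length alone, the sums by M21 gene and the fit without the block were chosen after seeing the data. With 3 mice per group and unknown depth, small differences and low genes such as Psma8 cannot be resolved.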

Other observations

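Markers of other cell types in the bulk livers were summed per liver, beside the lists given above. The 4 adipocyte markers summed to 0 to 0.107 FPKM in ND, 0.0699 to 0.156 in HFD, 0.142 to 0.384 in CLE and 1.02 to 1.346 in LU, and none reached the mean of 0.5 FPKM needed for a test. The T and NK cell markers summed to 4.13 to 6.41 FPKM in ND, 3.67 to 5.65 in HFD, 5.73 to 6.07 in CLE and 3.84 to 8.56 in LU. The B cell markers summed to 1.50 to 2.36 FPKM in ND, 0.976 to 1.88 in HFD, 1.62 to 3.45 in CLE and 1.87 to 2.03 in LU, and the neutrophil markers to 2.13 to 3.62 FPKM in ND, 4.18 to 7.20 in HFD, 7.60 to 11.71 in CLE and 2.43 to 8.63 in LU. Of the neutrophil markers 1, Ly6g, was at 0 in all livers, and Mpo was at 0 in all ND and CLE livers. Of the T and NK markers 4 were tested and Cd4 fell in HFD against ND. Of the neutrophil markers 2 were tested, S100a8 and S100a9, and both rose in CLE against ND. The common leukocyte marker Ptprc was at 3.27 to 3.72 FPKM in ND, 4.89 to 6.75 in HFD, 5.01 to 6.61 in CLE and 3.67 to 8.58 in LU, and the erythroid markers summed to 51.7 to 61.5 FPKM in ND, 72.9 to 95.5 in HFD, 70.4 to 98.9 in CLE and 67.6 to 93.9 in LU, with Hba-a1, of 2 tested genes, higher in CLE and in LU against ND. Of the 8 hepatocyte markers, Apoa1 and Serpina1a rose in CLE against HFD, where the median of the list was -0.049, and Serpina1a rose in LU against HFD. Cps1 fell in CLE and in LU against ND, and Cyp2e1 rose in LU against ND. Over all genes tested, 20.9% rose and 6.08% fell in CLE against ND, and 11.2% rose and 3.78% fell in LU against ND. In HFD against ND 9.99% rose and 2.11% fell. In CLE against HFD 2.74% rose, and in LU against HFD 0.303%. The part of these cells in the proteasome values was not tested.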
